A study of Mus musculus with 9 samples.

Results

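The Trim, Rnf, Fbx and Klhl genes encode ubiquitin ligases and their substrate receptors, and 99 of them could be measured in these hippocampus libraries. The genes were taken by name: symbols that begin with Trim, Rnf or Klhl and a digit, or with Fbxo, Fbxl or Fbxw. Of 269 such symbols among the 38911 gene symbols in the deposited table, 99 had a mean of at least 10 counts over the sham-labelled and CLP-labelled libraries, a minimum that does not look at the groups. By family, 18 of 69 Trim symbols passed, 34 of 84 Rnf, 14 of 36 Fbxo, 11 of 19 Fbxl, 5 of 24 Fbxw and 17 of 37 Klhl. Of the 99, Fbxl12os is no ligase gene: RefSeq lists it as a transcribed pseudogene. Rnf227 is listed there as a long non-coding RNA. Both were kept because their symbols meet the rule.

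Ubiquitin ligases choose which proteins receive ubiquitin, and with it which proteins are degraded, moved or switched in activity. Trim proteins carry a RING finger, B-boxes and a coiled coil, and many of them act in antiviral defence or in neurons, while Rnf is a naming class for proteins with a RING finger and spans chromatin, membrane and immune ligases. Fbx proteins join cullin 1 ligases through their F-box and bring substrates to them. Klhl proteins do the same for cullin 3 with a BTB domain and a kelch propeller. In the hippocampus these enzymes are known for shaping axons, synapses and receptor turnover, and in any tissue for tuning interferon and NF-kappa-B signalling.

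The study sequenced rRNA-depleted total RNA from whole hippocampus of healthy adult SPF BALB/c mice in 3 groups of 3. The first group had a sham operation (sham-labelled, called CTL by the submitters). The second had cecal ligation and puncture, an operation that lets gut bacteria into the abdomen and models sepsis (CLP-labelled, called SAE). The third had the same operation plus the flavonoids of Cuscuta chinensis at 200 mg/kg (CLP-plus-extract-labelled, called CCLF). No group carried a mutation or transgene in the labels, and the sources used here do not state the mice's sex, age in weeks or time after the operation. The labels call the 3 samples of a group biological replicates without naming separate animals, so p-values measure the spread between these samples.

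Library totals ran from 4626519 to 4895474 counts, and 8011 gene symbols reached the minimum and were tested. Neuron markers summed to 22800 to 23400 CPM (counts scaled to library size) in the sham-labelled libraries and 23400 to 24100 in the CLP-labelled ones. The sum was carried by genes such as Slc17a7, Snhg11 and Syp, with means of 5670, 5890 and 5970 CPM in the sham-labelled libraries. Other neuron markers were low there: Snap25, Syt1, Rbfox3 and Gad1 had means of 2.76, 0.209, 0.56 and 4.66 CPM. The group labels and the inflammation genes did not go together: of the acute inflammation and interferon list, all 12 tested genes were lower in the CLP-labelled libraries, where the list summed to 319 to 372 CPM against 4430 to 6430 in the sham-labelled and 2620 to 3510 in the extract-labelled libraries. Lcn2, an acute-phase gene, had 13816, 14822 and 13246 counts in the libraries labelled sham and 13, 14 and 6 in those labelled CLP. Directions below therefore follow the labels as deposited, and every statement on CLP-labelled libraries refers to libraries so labelled.

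Between the CLP-labelled and sham-labelled libraries the ligase genes had a median difference near 0, and their share of called genes was close to that of all tested genes. Of the 99 genes, 46 were called (46.5%), 20 higher and 26 lower in the CLP-labelled libraries, at an adjusted p under 0.05 (edgeR's quasi-likelihood F test, Benjamini-Hochberg over all tested genes). Among all 8011 tested genes 47.7% were called, 23.8% higher and 23.9% lower. The median log2 fold of the 99 genes was -0.02 (CLP-labelled minus sham-labelled) beside 0.01 for all tested genes, and the median size of the log2 fold was 0.31 beside 0.36. Values of the CLP-labelled and sham-labelled libraries did not overlap for 58 of the 99 genes (58.6%), where the share among all tested genes was 55.7%. In whole tissue, fewer cells of a type and less RNA per cell cannot be told apart, and this holds for each difference that follows.

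Each family held genes that moved in opposite directions. Trim had 3 genes higher and 4 lower of 18, Rnf 8 and 11 of 34, Fbxo 1 and 4 of 14, Fbxl 3 and 2 of 11, Fbxw 1 and 2 of 5, and Klhl 4 and 3 of 17. Family medians lay between -0.14 (Fbxo) and 0.19 (Fbxw) on the log2 scale. The Fbxw count rested on few libraries, with 1 gene called in place of 3 when sham-labelled replicate 1 was left out.

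**Figure D1:**
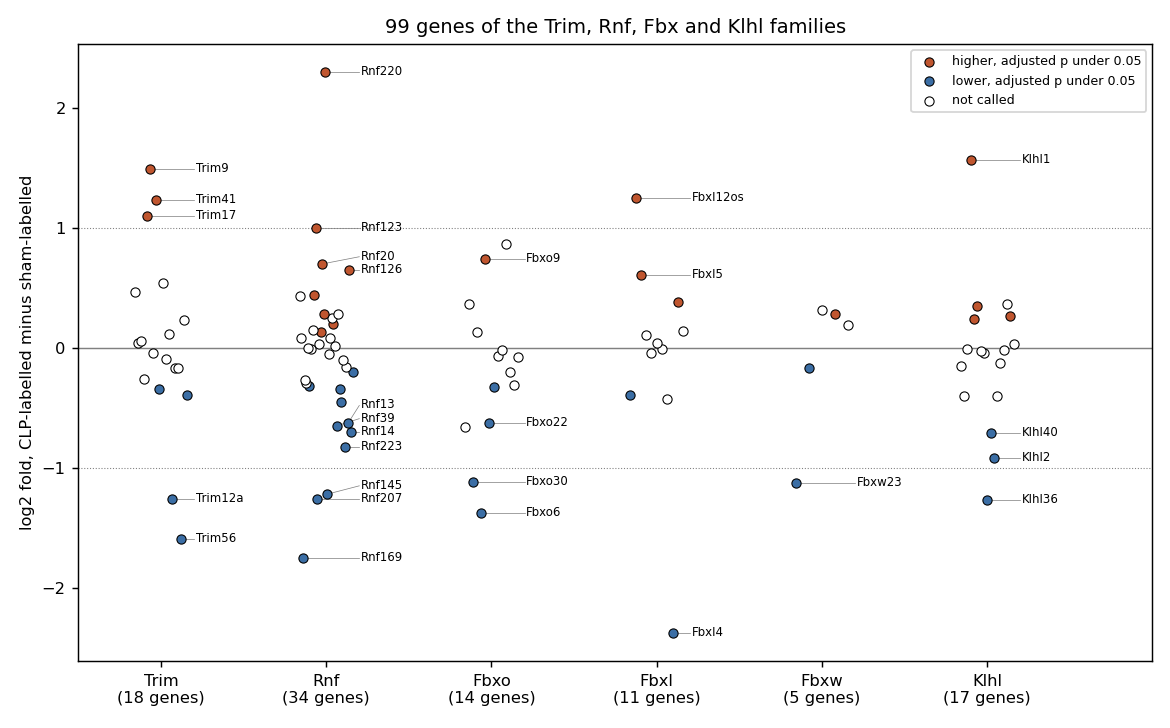
Each point is 1 of the 99 genes, placed by family along the x axis and by its log2 fold, CLP-labelled minus sham-labelled, along the y axis. Dotted lines mark a 2-fold difference. Filled points were called, 20 higher and 26 lower, and every family has filled points above and below 0; names with grey lines mark called genes with a log2 fold beyond 0.6 in size.

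Differences of more than 2-fold were found in 16 of the 46 called genes, 6 higher and 10 lower, which is 16 of 99 tested beside 15.9% of all tested genes. Of these 16 genes, 15 had a mean under 100 counts: among the 46 genes with a mean of 100 counts or more, 20 were called (43.5%) and 1, Trim9, changed more than 2-fold. Among the 53 genes below a mean of 100 counts, 26 were called (49.1%) and 15 changed more than 2-fold. Some genes beyond 2-fold reached the minimum of 10 only through the group where they were high. Rnf220 and Trim41 did so through the CLP-labelled libraries, and Fbxl4, Fbxo6 and Rnf207 through the sham-labelled ones. Over all tested genes, 59.5% were called at a mean of 100 counts or more and 284 of 3643 changed more than 2-fold, while below that mean 37.9% were called and 993 of 4368 changed more than 2-fold. Genes with several RefSeq transcripts held 13 of the 16 large differences, with 27 of 61 called (44.3%), and genes with a single transcript held the other 3, with 19 of 38 called (50%). Over all tested genes the called shares were 38.5% and 54.2% in the same order, and the shares called with more than a 2-fold difference were 15.7% and 16.1%. When only genes with a single transcript were fitted, 11 of these 38 genes were higher and 10 lower, where the fit of all genes gave 7 higher and 12 lower; the median fold of the shared genes differed by 0.031 on the log2 scale between the fits.

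**Figure D2:**
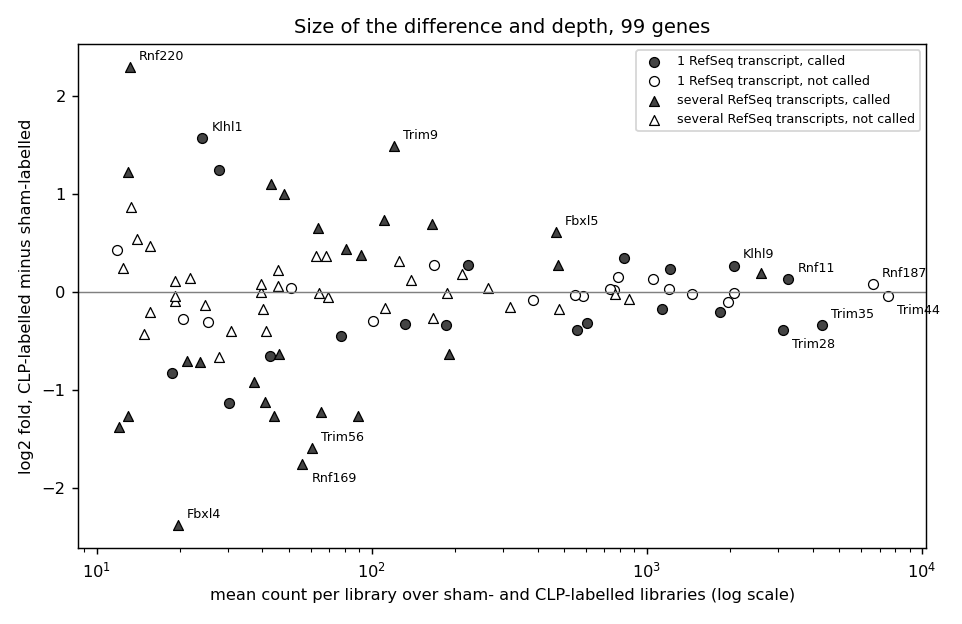
The x axis gives the mean count per library over the 6 sham-labelled and CLP-labelled libraries on a log scale, and the y axis the log2 fold, CLP-labelled minus sham-labelled, for 99 genes. Circles are genes with 1 RefSeq transcript, triangles genes with several, and filled symbols were called; large differences sit at low counts, with Trim9 the exception above 100 counts.

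Among the Trim genes of neurons, Trim9 rose. Trim9 encodes a brain-enriched ligase that acts on netrin-guided axon branching. It had 60, 74 and 53 counts in the sham-labelled libraries, 163, 176 and 193 in the CLP-labelled and 150, 94 and 95 in the extract-labelled libraries. Every CLP-labelled library was above every other library, and the extract-labelled libraries lay between the other groups. The level went from 13.2 ± 2.19 CPM (SD, n = 3) to 37.4 ± 2.69 CPM, a log2 fold of 1.49 ± 0.15 (SE; adjusted p = 1.41e-08). All its counts fell on 1 of 21 listed transcripts. Of the list of 8 Trim genes with NHL or COS domains, which are known in neurons, 3 were tested and only Trim9 was called. That is 33.3%, beside 47.7% of all tested genes. Trim2, whose product acts on neurofilament light chain, had 16, 10 and 13 counts against 14, 15 and 26 (log2 fold 0.47 ± 0.36, adjusted p = 0.285). Trim71, the stem cell regulator LIN41, had 52, 45 and 53 counts against 53, 51 and 52 (adjusted p = 0.871).

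Trim17 and Trim41 rose with Trim9. Trim17, a ligase known from neuronal apoptosis, had 24, 24 and 33 counts in the sham-labelled libraries and 66, 50 and 60 in the CLP-labelled ones. The groups did not overlap, and the log2 fold was 1.10 ± 0.22 (adjusted p = 0.000222). Trim41 had 8, 8 and 7 counts against 14, 17 and 24. Its log2 fold was 1.23 ± 0.38 (adjusted p = 0.00952), and without CLP-labelled replicate 3, its highest library, the adjusted p was 0.0571; DESeq2's Wald test gave 0.0599.

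The antiviral Trim genes that could be tested were lower or not called. Of 18 genes on that list 4 were tested, and 2 of the 4, Trim56 and Trim12a, fell (50% called). That share is close to the 47.7% called among all tested genes. Trim56, an interferon-induced ligase that promotes cGAS and STING signalling, had 73, 102 and 98 counts in the sham-labelled libraries, 33, 29 and 29 in the CLP-labelled and 73, 38 and 59 in the extract-labelled libraries. The CLP-labelled libraries were the lowest of all 9. Expression went from 19.3 ± 2.85 to 6.4 ± 0.525 CPM (SD, n = 3; log2 fold -1.59 ± 0.19, adjusted p = 3.69e-07). Trim12a, a mouse relative of the retrovirus restriction factor TRIM5, had 135, 135 and 106 counts against 65, 52 and 41, with 129, 100 and 100 in the extract-labelled libraries. Its log2 fold was -1.26 ± 0.18 (adjusted p = 3.68e-06), and reads shared with its close copy Trim12c make its count uncertain. Trim8, which acts on cytokine signalling, had 483, 491 and 541 counts against 461, 432 and 464, a log2 fold of -0.17 ± 0.07 that missed the threshold (adjusted p = 0.055). Trim65, a ligase for the RNA sensor MDA5, had 39, 40 and 48 counts against 50, 32 and 32 (adjusted p = 0.574).

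The start regions of Trim56 and Trim12a are printed here because these are the antiviral Trim genes that fell. Sequences are from RefSeq on GRCm38.p6 and run 5′ to 3′ on the gene's strand, from 250 bases before a start listed by RefSeq to 50 after it; that start lies 63 bases inside the outer edge of the annotated gene for Trim12a and 255 bases inside it for Trim56, and the windows were not matched to the transcripts counted. Capitals mark a match to the core of the interferon-stimulated response element, GAAANNGAAA, searched on both strands; the match is on the strand opposite to the gene.

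Trim12a: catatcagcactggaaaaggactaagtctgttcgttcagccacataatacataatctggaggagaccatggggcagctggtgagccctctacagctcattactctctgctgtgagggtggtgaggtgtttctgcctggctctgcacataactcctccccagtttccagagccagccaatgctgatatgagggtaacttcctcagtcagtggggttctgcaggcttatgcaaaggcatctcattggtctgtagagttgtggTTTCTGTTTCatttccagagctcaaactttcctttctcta
Trim56: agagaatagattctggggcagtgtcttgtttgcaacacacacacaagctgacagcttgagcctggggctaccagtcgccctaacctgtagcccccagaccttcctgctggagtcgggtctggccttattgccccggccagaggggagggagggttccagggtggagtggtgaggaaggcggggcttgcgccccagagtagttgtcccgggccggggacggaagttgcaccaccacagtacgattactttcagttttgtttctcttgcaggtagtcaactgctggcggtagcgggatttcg

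The windows lie at chr7:104315446-104315745 (Trim12a, minus strand) and chr5:137116158-137116457 (Trim56, minus strand). The match in Trim12a begins 10 bases after the start, counted to the first base of the match on the gene's strand. In the Trim56 window the letters of this core are not present. Of the 99 genes, 77 had a window in the RefSeq table, and 4 of these held the core: Trim12a (lower), Rnf20 (higher), Trim2 and Fbxo7 (neither called). That is 5.19% of the 77 genes beside 3.99% of 27025 genes with a window, and the core was present in 3.44% of all 32851 windows of this length. The antioxidant response core TGACNNNGC was present in 13% of the 77 genes beside 14% of all genes with a window, and in 12.4% of all windows. The E-box CACGTG was present in 9.09% of the 77 genes beside 8.09% of all genes with a window, and in 7.15% of all windows. The listed start behind the Rnf20 window lies 6620 bases inside that gene's outer edge. The matches are a description of letters only.

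Other antiviral Trim genes and the RIG-I regulator Rnf125 lay under the count minimum. Trim30a, an interferon-induced regulator of Toll-like receptor signalling, had 8, 15 and 13 counts in the sham-labelled libraries and 1, 3 and 1 in the CLP-labelled ones. In a fit with no minimum its log2 fold was -2.77 ± 0.65 (adjusted p = 0.000233), and its near-identical cluster neighbours make the count uncertain. Rnf125, whose product ubiquitinates RIG-I, had 12, 25 and 12 counts against 0, 1 and 1. The level in the sham-labelled libraries was 24.1 times that in the CLP-labelled libraries, with a 95% exact counting interval from 6.33 to 205 that covers counting error only, and the fit with no minimum gave an adjusted p of 1.44e-08. Trim25 and Trim21, classical interferon-induced ligases, had at most 4 counts in any of these 6 libraries.

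The genes of ISG15 conjugation, the ubiquitin-like pathway that interferon switches on, were lower in the CLP-labelled libraries throughout. All 5 of 5 tested genes fell (100% called, beside 47.7% of all tested genes), with a median log2 fold of -1.94. Isg15 itself had 252, 292 and 175 counts in the sham-labelled libraries, 23, 28 and 19 in the CLP-labelled and 64, 239 and 87 in the extract-labelled libraries (log2 fold -3.37 ± 0.22, CLP-labelled minus sham-labelled, adjusted p = 5.31e-09). Its activating enzyme Uba7 had 296, 315 and 289 counts against 66, 82 and 89 (log2 fold -1.94 ± 0.12, adjusted p = 8.47e-12). The groups were separate for each of the 5 genes. For the conjugating enzyme Ube2l6 the log2 fold was -1.70 ± 0.13, for the mouse ISG15 ligase Herc6 -1.85 ± 0.13 and for the ISG15 protease Usp18 -2.81 ± 0.20. These genes move with the inflammation list, which was lower in the same libraries. Isg15 stands on both lists, so the 2 lists are not independent. Neutrophil markers were lower there too, with 3 of 3 tested genes lower and a summed level of 2.89 to 4.72 CPM against 50.3 to 73.9; S100a9 and Ly6g were at 0. The part of either list in the fall of the antiviral Trim genes was not tested.

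**Figure D3:**
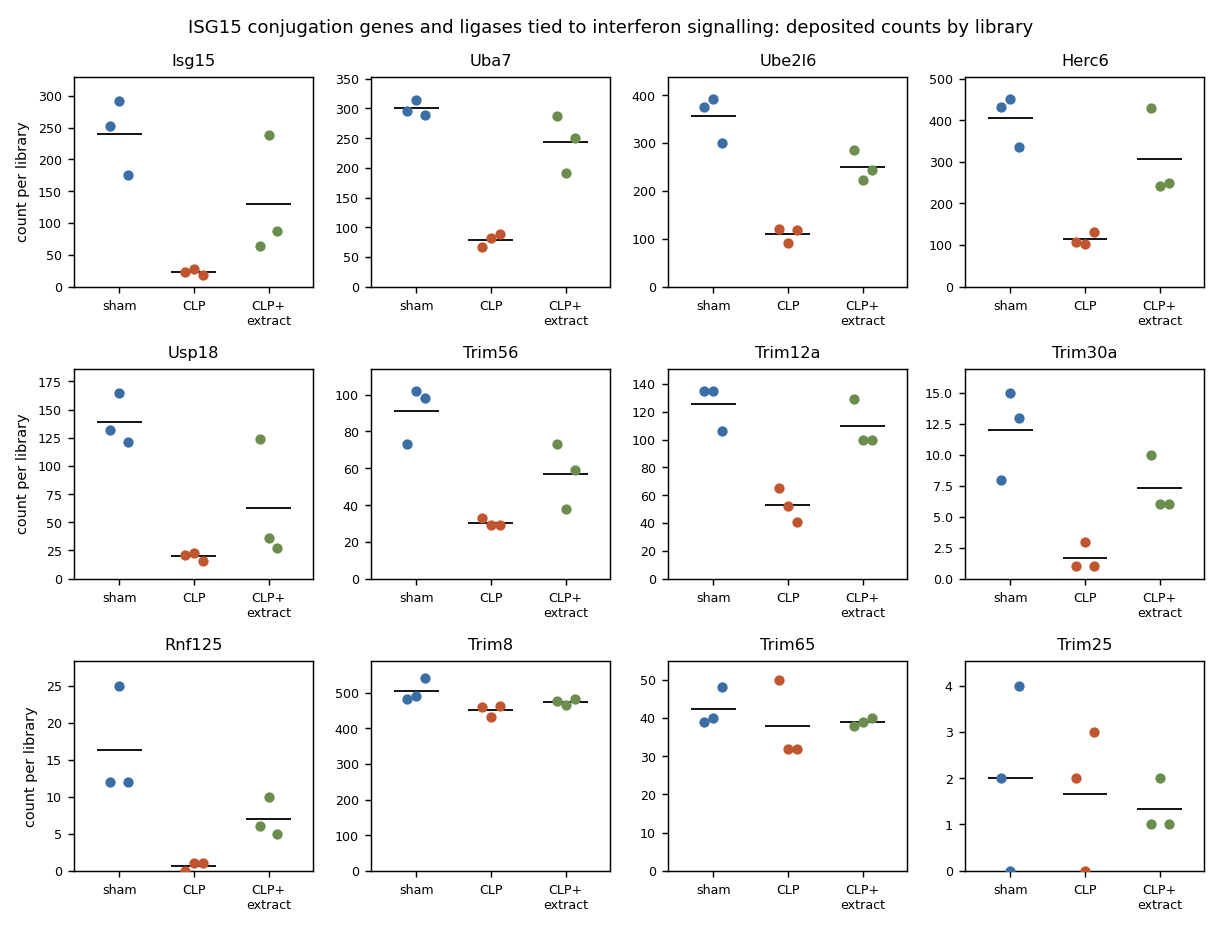
Deposited counts per library (y axes from 0, a scale for each gene) of 5 ISG15 conjugation genes, 6 Trim genes and Rnf125 in the 3 groups as labelled; lines are means of 3 libraries. Isg15, Uba7, Ube2l6, Herc6, Usp18, Trim56, Trim12a, Trim30a and Rnf125 are lowest in the CLP-labelled libraries, while Trim8, Trim65 and Trim25 were not called.

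Trim28 and Trim35 fell by smaller amounts, with little spread. Trim28, the corepressor KAP1 that silences retroelements through KRAB zinc finger proteins, had 3408, 3685 and 3472 counts in the sham-labelled libraries, 2636, 2726 and 2749 in the CLP-labelled and 3105, 2889 and 3421 in the extract-labelled libraries. The CLP-labelled libraries were all below the rest. The level was 747 ± 22.1 and 571 ± 13 CPM (SD, n = 3), a log2 fold of -0.39 ± 0.04 (adjusted p = 4.27e-08). Trim35 had 4643, 4966 and 4883 counts against 3829, 3844 and 3859 (log2 fold -0.34 ± 0.04, adjusted p = 7.36e-08). Trim44, an atypical member without a RING finger, had 7286, 7822 and 7618 counts against 7163, 7495 and 7652, and its groups overlapped (log2 fold -0.04 ± 0.04, adjusted p = 0.369). The other Trim genes tested were not called, with log2 folds from -0.26 (Trim39) to 0.54 (Trim27).

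Rnf genes of chromatin and DNA repair moved in opposite directions. Of 4 tested on that list, 1 was higher and 2 lower (75% called, beside 47.7% of all tested genes). Rnf20, the ligase that monoubiquitinates histone H2B, had 105, 119 and 153 counts in the sham-labelled libraries, 190, 213 and 214 in the CLP-labelled and 196, 161 and 180 in the extract-labelled libraries. Sham-labelled libraries were all below the others. The log2 fold was 0.70 ± 0.13 (adjusted p = 0.000107). Rnf169, which binds ubiquitinated histones at DNA breaks, fell from 74, 123 and 61 counts to 28, 26 and 23, with 48, 41 and 73 in the extract-labelled libraries. The sham-labelled counts of Rnf169 were uneven, yet all lay above the CLP-labelled ones (log2 fold -1.75 ± 0.25, adjusted p = 1.16e-05). Of the other tested genes on this list, Rnf8, which starts histone ubiquitination at DNA breaks, was lower (99, 90 and 78 counts against 66, 56 and 76, log2 fold -0.45 ± 0.17, adjusted p = 0.0327). The groups of Rnf8 nearly met, at 78 and 76 counts, and its call did not hold in every alternative. Rnf168, which extends this histone ubiquitination, was not called (719, 732 and 707 against 754, 703 and 773, adjusted p = 0.687). Rnf40, the partner of Rnf20, had at most 3 counts in these 6 libraries and was not tested.

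Rnf220 had the highest log2 fold among the 99 genes, and it reached the count minimum only through the CLP-labelled libraries. Its product modifies the Gli factors of Sonic hedgehog signalling. Rnf220 had 4, 3 and 6 counts in the sham-labelled libraries, 26, 27 and 13 in the CLP-labelled and 12, 15 and 6 in the extract-labelled libraries. CLP-labelled replicate 3 held about as many counts as the extract-labelled libraries, and all CLP-labelled libraries were above the sham-labelled ones. The log2 fold was 2.30 ± 0.44 (adjusted p = 0.000151). Counts of its highest transcript alone, of 13 listed, gave a log2 fold of 3.08. Rnf123, known as KPC1 for its part in p27 turnover and NF-kappa-B precursor processing, rose from 32, 29 and 34 counts to 75, 62 and 55 (log2 fold 1.00 ± 0.21, adjusted p = 0.000343).

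Transmembrane Rnf ligases were split, with 2 higher and 2 lower of 6 tested (66.7% called, beside 47.7% of all tested genes). Rnf145, a sterol-responsive ligase of the endoplasmic reticulum, had 95, 97 and 82 counts in the sham-labelled libraries, 40, 34 and 45 in the CLP-labelled and 91, 60 and 91 in the extract-labelled libraries. CLP-labelled libraries were the lowest (log2 fold -1.22 ± 0.18, adjusted p = 6.43e-06). Rnf13, a ligase of the endolysosomal membrane, was lower (50, 58 and 59 counts against 29, 40 and 40, log2 fold -0.63 ± 0.20, adjusted p = 0.0144), but without CLP-labelled replicate 1 its adjusted p was 0.08, and DESeq2's Wald test gave 0.0643. Its counts were spread over 8 transcripts, the highest of which gave a log2 fold of -1.25. Rnf128, known as GRAIL for its role in T-cell anergy, had 56, 61 and 87 counts against 103, 87 and 89, and its log2 fold of 0.44 ± 0.17 was near the threshold (adjusted p = 0.0396). Rnf128 lost its call without sham-labelled replicate 1 (adjusted p = 0.167) or 2 (0.14), without CLP-labelled replicate 1 (0.154) or 2 (0.0583), under DESeq2's Wald test (0.116) and with no minimum (0.0522). Rnf130, the other transmembrane gene that rose, had 2379, 2278 and 2561 counts against 2705, 2810 and 2833 (log2 fold 0.20 ± 0.05, adjusted p = 0.00141).

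Rnf207, Rnf223 and Rnf11 complete the named Rnf genes. Rnf207, described in heart for a potassium channel, had 16, 18 and 21 counts against 9, 9 and 5 (log2 fold -1.26 ± 0.38, adjusted p = 0.00816 by edgeR and 0.0508 by DESeq2's Wald test). Rnf223 had 30, 21 and 21 counts against 14, 8 and 19 (log2 fold -0.83 ± 0.34, adjusted p = 0.0481). The Rnf223 call was lost without sham-labelled replicate 1 (adjusted p = 0.218), without CLP-labelled replicate 1 (0.0884) or 2 (0.201), under DESeq2's Wald test (0.142) and limma-voom (0.0535), with no minimum (0.0741) and in the fit of single-transcript genes (0.0626). Rnf11, a small RING protein that works with the NF-kappa-B regulator A20, had 3020, 3156 and 3123 counts against 3270, 3452 and 3579. Its log2 fold was 0.13 ± 0.04 (adjusted p = 0.00982), and without CLP-labelled replicate 2 the adjusted p was 0.0625. Among RING-in-between-RING ligases 3 of 8 listed genes were tested and 1 was called (33.3%, beside 47.7% of all tested genes). Rnf14, a cofactor of the androgen receptor, was lower (26, 28 and 25 counts against 18, 16 and 15, log2 fold -0.70 ± 0.28, adjusted p = 0.0452). Counts of the highest of its 21 transcripts gave -0.18 on the log2 scale.

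Of F-box genes with known substrates, 2 rose and 4 fell of 17 tested (35.3%, beside 47.7% of all tested genes). Fbxl5, the iron sensor that marks the iron regulatory protein IRP2 for degradation, had 322, 401 and 374 counts in the sham-labelled libraries, 556, 576 and 560 in the CLP-labelled and 404, 417 and 549 in the extract-labelled libraries. By count, all CLP-labelled libraries were above the rest, and extract-labelled replicate 3 lay close to them. That library had a smaller total than CLP-labelled replicate 3 (4715490 against 4870415 counts), so the order of these 2 does not hold once scaled. The level went from 77.5 ± 6.59 to 119 ± 3.98 CPM (SD, n = 3; log2 fold 0.61 ± 0.08, adjusted p = 7.91e-07). Fbxl2, a membrane-anchored F-box protein, had 72, 79 and 85 counts against 98, 109 and 103 (log2 fold 0.38 ± 0.15, adjusted p = 0.0377). That call was lost when any sham-labelled or CLP-labelled library but sham-labelled replicate 3 was left out, with adjusted p of 0.11 and 0.0792 without sham-labelled replicates 1 and 2 and 0.0501, 0.124 and 0.0553 without CLP-labelled replicates 1, 2 and 3; DESeq2's Wald test gave 0.129 and the fit with no minimum 0.0861.

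Fbxl4 fell furthest of the 99 genes, and it reached the count minimum only through the sham-labelled libraries. Its product sits at mitochondria and restrains mitophagy. Fbxl4 had 36, 34 and 29 counts in the sham-labelled libraries, 6, 2 and 11 in the CLP-labelled and 25, 22 and 32 in the extract-labelled libraries. The CLP-labelled libraries were far below the others, which overlapped. The log2 fold was -2.38 ± 0.38 (adjusted p = 1.85e-05), from 7.02 ± 0.92 to 1.33 ± 0.924 CPM (SD, n = 3). Without CLP-labelled replicate 3, its highest CLP-labelled library, the log2 fold was -3.01 (adjusted p = 8.2e-06).

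Fbxo6, Fbxo30, Fbxo9 and Fbxw23 also differed. Fbxo6, which recognises misfolded glycoproteins, had 21, 19 and 12 counts against 7, 7 and 6 (log2 fold -1.38 ± 0.40, adjusted p = 0.00614). Fbxo30, described as MUSA1 in muscle wasting, had 57, 68 and 43 counts against 25, 31 and 22 (log2 fold -1.12 ± 0.24, adjusted p = 0.000431). Fbxo9 rose, from 58, 84 and 104 counts to 138, 133 and 144 (log2 fold 0.74 ± 0.16, adjusted p = 0.000497). Fbxw23 belongs to a cluster of near-identical genes, so its 44, 33 and 47 counts against 28, 14 and 15 are uncertain (log2 fold -1.13 ± 0.28, adjusted p = 0.00186). Fbxl12os had 16, 15 and 18 counts against 47, 33 and 38 (log2 fold 1.25 ± 0.26, adjusted p = 0.000408), while Fbxl12, the gene it is named for, was not called (15, 23 and 24 against 22, 17 and 30, adjusted p = 0.727).

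Fbxw7, Fbxo7 and Fbxo32 did not pass the test. Fbxw7, which marks cyclin E, MYC and NOTCH proteins, had 117, 106 and 109 counts against 157, 123 and 140. Its log2 fold of 0.32 ± 0.14 gave an adjusted p of 0.0526, which fell to 0.0377 without CLP-labelled replicate 2, to 0.038 in the fit of all 9 libraries, which includes the extract-labelled columns described below, and to 0.0487 with replicate number as a block. Fbxo7, a gene of inherited parkinsonism, had 11, 6 and 11 counts against 17, 18 and 17 (log2 fold 0.87 ± 0.37, adjusted p = 0.0545; 0.0211 in the fit of all 9 libraries and 0.0497 with limma-voom). Fbxo32, the muscle atrophy ligase atrogin-1, had 385, 383 and 417 counts against 354, 358 and 419 (log2 fold -0.08 ± 0.08, adjusted p = 0.442).

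Among Klhl genes, Klhl1 rose most. Klhl1 encodes a brain protein that binds actin and modulates calcium channels. It had 13, 11 and 12 counts in the sham-labelled libraries, 31, 38 and 40 in the CLP-labelled and 37, 38 and 28 in the extract-labelled libraries. Sham-labelled libraries stood alone at the low end, and the CLP-labelled and extract-labelled libraries overlapped. The level went from 2.55 ± 0.279 to 7.66 ± 0.948 CPM (SD, n = 3; log2 fold 1.57 ± 0.28, adjusted p = 7.18e-05).

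Smaller rises in genes with more counts were found for Klhl17, Klhl9 and Klhl34. Klhl17, also called actinfilin, a postsynaptic adaptor for a kainate receptor subunit, had 677, 766 and 721 counts against 922, 920 and 932 (log2 fold 0.35 ± 0.06, adjusted p = 3.26e-05). Klhl9, an adaptor for Aurora B, had 1802, 1943 and 1876 counts against 2177, 2250 and 2395 (log2 fold 0.27 ± 0.05, adjusted p = 3.83e-05). Klhl34 had 1092, 1144 and 1075 counts against 1285, 1282 and 1376 (log2 fold 0.24 ± 0.05, adjusted p = 0.000599). All 3 genes have a single transcript. Of 9 tested neuron markers, 4 were higher in the same libraries and none lower (44.4% called, beside 47.7% of all tested genes). The other 5 were not called, and the log2 folds of the 9 ran from -0.3 to 0.27. Summed levels of the list are given above. The part of neuron content in the rises of Trim9, Klhl1 and Klhl17 was not tested.

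Klhl36, Klhl2 and Klhl40 fell. Klhl36 had 65, 70 and 52 counts in the sham-labelled libraries, 33, 25 and 20 in the CLP-labelled and 58, 60 and 53 in the extract-labelled libraries. The CLP-labelled libraries were lowest, and the other groups overlapped (log2 fold -1.27 ± 0.23, adjusted p = 7.37e-05). Klhl2, known as Mayven, an actin-binding adaptor that also targets WNK kinases, had 47, 45 and 54 counts against 34, 18 and 26 (log2 fold -0.92 ± 0.24, adjusted p = 0.00291). Klhl40, a muscle gene of nemaline myopathy, had 33, 27 and 28 counts against 20, 20 and 14 (log2 fold -0.71 ± 0.28, adjusted p = 0.0382). The Klhl40 call was lost without sham-labelled replicate 1 (adjusted p = 0.144) or 3 (0.0529), without CLP-labelled replicate 1 (0.0518) or 3 (0.148), under DESeq2's Wald test (0.14) and with no minimum (0.0841). Klhl24, which turns over keratin and kainate receptor subunits, was not called (352, 323 and 319 counts against 267, 330 and 309, log2 fold -0.15 ± 0.10, adjusted p = 0.222).

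**Figure D4:**
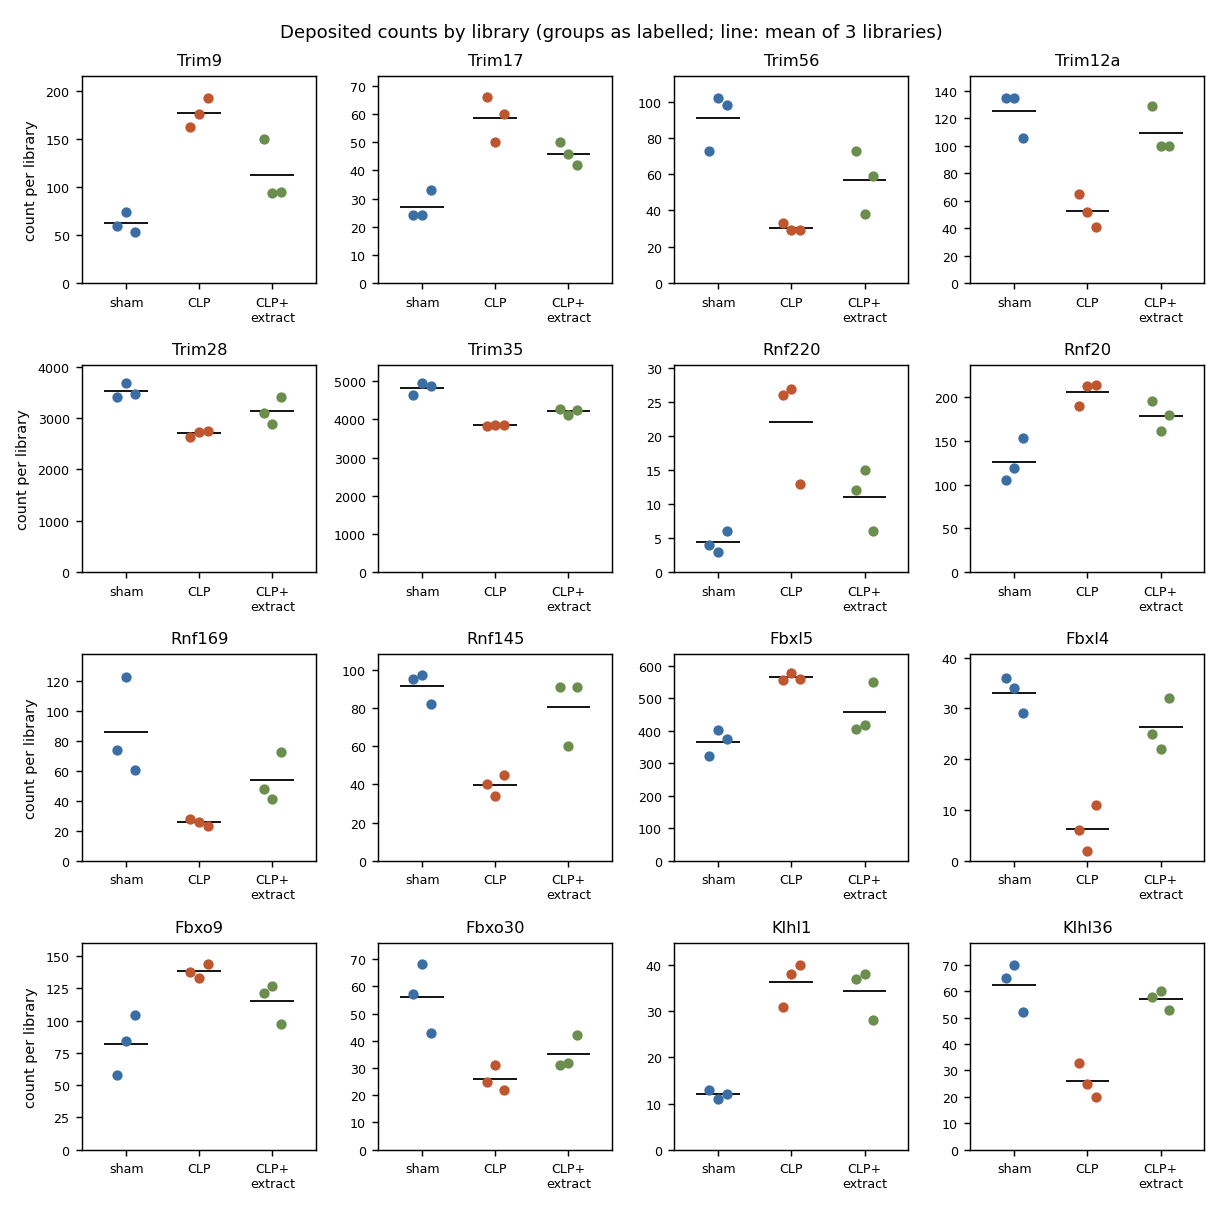
Deposited counts in each of the 9 libraries (y axes from 0, a scale for each gene) for 16 of the called genes, with the 3 groups as labelled on the x axis; lines are means of 3 libraries. Separate CLP-labelled and sham-labelled libraries were part of the rule that chose these genes. For genes such as Fbxl4, Klhl36 and Rnf145 the extract-labelled libraries lie nearer the sham-labelled ones. For others, such as Klhl1, Rnf20 and Fbxo30, their means lie nearer the CLP-labelled ones. The small spread of the extract-labelled columns is described below.

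Markers of other cell types were also compared between the same groups, where 47.7% of all tested genes were called. The summed levels of astrocyte, meningeal, border macrophage and choroid plexus markers overlapped between the groups. Microglia markers were higher in the CLP-labelled libraries, 5 of 5 tested, with a summed level of 777 to 840 CPM against 442 to 575 (P2ry12 and Gpr34 at 0). Oligodendrocyte markers were higher as well, 5 of 6 tested and 1340 to 1540 CPM against 898 to 983, with none at 0. Endothelial markers had 2 higher and 1 lower of 3 tested, at 423 to 446 CPM against 296 to 337, with Pecam1 at 0. Astrocyte markers had 2 higher and 6 lower of 8 tested, at 3870 to 3910 CPM against 3720 to 3970. Gfap, among the lower ones, stands on the inflammation list as well. Meningeal markers had 4 higher and none lower of 7 tested (202 to 344 CPM against 187 to 215), border macrophage markers 1 higher and 2 lower of 3 (52.5 to 61.3 against 55.9 to 60.4; Cd163, Ccr2 and Ly6c2 at 0), choroid plexus markers 1 higher and none lower of 4 (627 to 1270 against 498 to 780; Prlr at 0) and red blood cell markers 2 lower of 4 (459 to 567 against 586 to 607; Alas2 at 0). No lymphocyte marker was tested. The part of cell content in the differences of the ligase genes was not tested.

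The lists of ubiquitin activation, conjugation and the cullin core are read beside the 47.7% of all tested genes that were called. Of ubiquitin, its relatives and their activating enzymes, 2 of 14 tested genes rose and 3 fell (35.7%); besides Uba7, listed here as well, Uba6, the second activating enzyme for ubiquitin, rose from 241, 236 and 224 counts to 400, 443 and 429 (log2 fold 0.85 ± 0.09, adjusted p = 4.91e-08). Of conjugating enzymes, 1 of 15 rose and 3 fell (26.7%), the latter including Ube2l6 and Ube2g2, an enzyme of protein quality control at the endoplasmic reticulum (log2 fold -0.38 ± 0.05, adjusted p = 2.26e-06). In the cullin core, on which F-box and Klhl proteins act, 1 of 11 rose and 2 fell (27.3%): Cops6, a subunit of the COP9 signalosome, rose by 0.17 ± 0.05 on the log2 scale (adjusted p = 0.0109; 0.0628 and 0.0527 without sham-labelled replicates 1 and 2), and Dcun1d1, which promotes cullin neddylation, differed by -1.33 ± 0.43 (adjusted p = 0.0128; 0.0683 without CLP-labelled replicate 3 and 0.0741 by DESeq2's Wald test). Without sham-labelled replicate 1 or 2, the cullin core had 1 call in place of 3.

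Ligases outside the named families had 6 higher and 10 lower of 30 tested (53.3% called), and deubiquitinases 2 and 6 of 20 (40%). Among all tested genes 47.7% were called, 23.8% higher and 23.9% lower. Fem1b, a substrate receptor for cullin 2, rose from 2322, 2388 and 2551 counts to 3519, 3655 and 3713 (log2 fold 0.57 ± 0.04, adjusted p = 1.23e-10). Usp31, a deubiquitinase, rose from 850, 863 and 897 counts to 1304, 1350 and 1395 (log2 fold 0.62 ± 0.05, adjusted p = 1.44e-09). The smallest p-values among genes that fell were those of Herc6 and Usp18, which also stand on the ISG15 list.

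Most symbols of these families could not be measured. Of the 170 under the minimum, 72 had 0 counts in all 6 sham-labelled and CLP-labelled libraries, and 67 of these have several RefSeq transcripts. Single-transcript symbols passed the minimum in 59.4% of cases (38 of 64) and symbols with several transcripts in 29.8% (61 of 205). Genes used by most cells stood among the zeros or near them, such as Cul4a at 0 and Cul3 with at most 2 counts in any of the 9 libraries, so a 0 here says only that the table lists the gene at 0. Trim3, Trim32, Rnf31, Rnf213, Rnf216 and Fbxw11 were listed at 0, and Trim46, Rnf2, Rnf146, Fbxo2, Fbxo31, Fbxl20, Klhl3 and Klhl22 had at most 8 counts in any of the 6 libraries. At the edge of the minimum, Rnf138rt1, Fbxo6 and Rnf43 passed with means of 11.83, 12 and 12.5 counts, and Klhl42, Rnf125 and Fbxo10 missed it with 9.83, 8.5 and 8.33. With no minimum, 4 of the 170 symbols were called: Rnf125 and Trim30a, described above, as lower, and Fbxw15 (0, 2 and 0 counts against 6, 9 and 6, adjusted p = 0.00443) and Klhl18 (2, 5 and 2 against 14, 8 and 10, adjusted p = 0.018) as higher.

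The extract-labelled columns varied less between libraries than counting error allows, so p-values that use them rest partly on a spread below counting error. Rnf24, for example, had 746, 746 and 746 counts, Rnf165 2074, 2076 and 2075, Trim11 133, 134 and 133, and Klhl24 311, 310 and 311. The variance of the 3 libraries divided by that of counting error had a median of 0.326 over the 99 genes in the extract-labelled group, beside 0.867 in the sham-labelled and 1.082 in the CLP-labelled group, where counting error alone gives 0.693. For 23 of the 99 genes (23.2%) this ratio was under 0.05, against 2 of 98 in the sham-labelled and 5 of 99 in the CLP-labelled group; counting error alone gives 5%. Over all tested genes the share was 18.6%, 2.64% and 3.01% in the same order. Trim71 went the other way, with 45, 15 and 1 counts in the extract-labelled libraries. The fits of CLP-labelled against sham-labelled libraries above do not use these columns, except where a fit of all 9 libraries is named. The CPM levels, marker sums and overlap counts use these columns only through scaling factors computed over all 9 libraries.

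**Figure D5:**
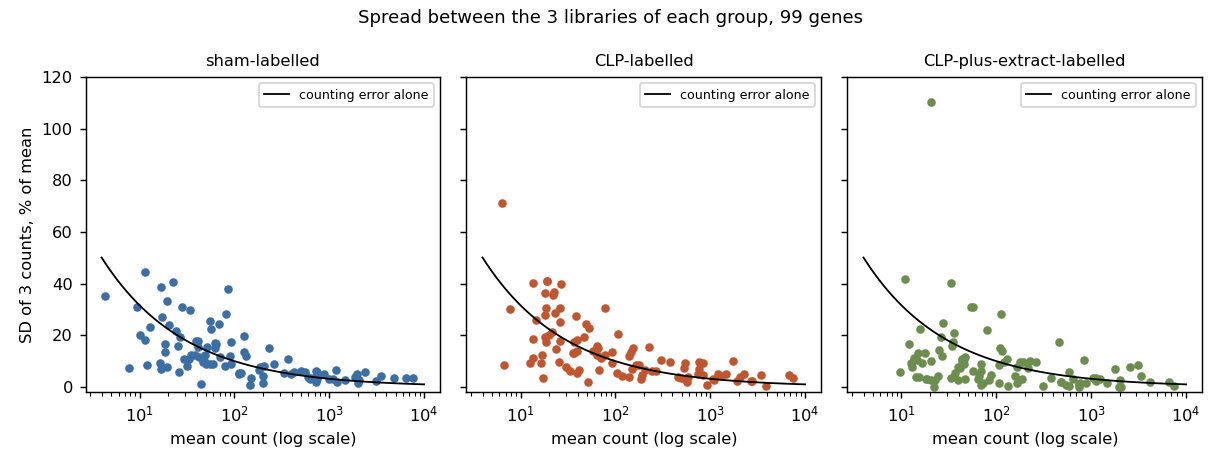
For each of the 99 genes and each labelled group, the SD of the 3 counts in percent of their mean (y axis) is set against the mean count (x axis, log scale); the line is the SD that counting error alone gives. Points of the extract-labelled group lie mostly under the line, with Trim71 far above it, and those of the sham-labelled and CLP-labelled groups scatter around it.

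Between the extract-labelled and CLP-labelled libraries, 13 of the 99 genes were called, 10 higher and 3 lower with extract (13.1%), in a fit of all 9 libraries. Among all tested genes 11.5% were called, 7.2% higher and 4.26% lower. For Fbxl4 the log2 fold was 2.04 ± 0.37 (extract-labelled minus CLP-labelled, adjusted p = 0.00426), Fbxo6 1.22 ± 0.34 (0.0377), Klhl36 1.14 ± 0.20 (0.00386), Trim12a 1.06 ± 0.19 (0.00357), Rnf145 1.03 ± 0.19 (0.0043) and Trim56 0.91 ± 0.23 (0.0272). These 6 genes are among those that were lower in the CLP-labelled than in the sham-labelled libraries, and both comparisons use the same CLP-labelled libraries. Fbxl6, Trim28, Trim35 and Rnf26 were higher by 0.27, 0.22, 0.14 and 0.27 on the log2 scale. The 3 genes that were lower with extract were Trim9 (log2 fold -0.64 ± 0.17, adjusted p = 0.0304), Klhl34 (-0.21 ± 0.05, 0.0122) and Klhl9 (-0.16 ± 0.04, 0.0224). Leaving out CLP-labelled replicate 1, 2 or 3 left 8, 7 and 8 calls. In place of 3 genes lower with extract there was 1 without CLP-labelled replicate 2, without CLP-labelled replicate 3, without extract-labelled replicate 2 and in the fit of only the 6 libraries compared.

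Against the sham-labelled libraries, 7 of the 99 genes were called in the extract-labelled ones, 4 higher and 3 lower (7.07%). Among all tested genes 10.4% were called, 5.93% higher and 4.51% lower. Klhl1 was higher by 1.51 ± 0.23 on the log2 scale (adjusted p = 0.00154), Trim9 by 0.86 ± 0.19 (0.0149), Trim17 by 0.77 ± 0.19 (0.0219) and Rnf20 by 0.51 ± 0.13 (0.0248). Trim35 was lower (log2 fold -0.20 ± 0.03, adjusted p = 0.00229), as were Fbxo22, a ligase for histone demethylases (-0.54 ± 0.11, 0.00879), and Trim56 (-0.68 ± 0.20, 0.0475). The number of calls was 3 without sham-labelled replicate 1, 4 without sham-labelled replicate 2 and 11 without extract-labelled replicate 3.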

How the data were processed

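Whole-number counts per RefSeq transcript for 9 libraries of 3 labelled groups were used as deposited. Per the submitters' processing notes, fastp and Salmon made them; the sources used here state neither versions and settings nor the index or build. The file headers name RefSeq transcripts. Salmon divides reads among similar transcripts, so genes with several transcripts or close copies may be counted less surely. Per the file headers each column is 1 library, and 0 columns of per-sample values were left unused.

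All 120312 transcripts matched a gene symbol in the RefSeq table of GRCm38.p6, used for names and promoter windows, and counts were summed per symbol. Symbols with a mean of at least 10 counts over sham-labelled and CLP-labelled libraries were kept (8011). edgeR 4.0.16 (TMM factors, robust quasi-likelihood F test, Benjamini-Hochberg adjustment over all kept symbols, threshold 0.05) was fitted to the 6 libraries of those groups, and to all 9 for comparisons with the extract. SE is the log2 fold's size over the square root of F. Levels, marker sums and overlap counts use edgeR CPM with TMM factors computed over all 9 libraries. The calling step was tested on simulated data. Alternatives were limma-voom (limma 3.58.1), DESeq2 1.42.0's Wald test and size factors, no minimum, filterByExpr, all 9 libraries, replicate block, single-transcript genes, each gene's highest transcript, and each library left out. Other software was R 4.3.3, Python 3.11.15, numpy 2.4.6, pandas 2.3.3 and matplotlib 3.10.9.

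The genes, lists and tests were chosen with earlier results of these data known. Named genes are, in each of the Trim, Rnf, Fbx and Klhl families, at most 4 called genes from each end of the folds, with separate groups and a mean of at least 1 CPM; a set with well-described roles; the 2 smallest p-values of each pathway list; and the symbols nearest the minimum. Genes named outside it, such as Trim8, Trim44, Trim65, Trim71, Rnf8, Rnf14, Rnf24, Rnf130, Rnf168 and Fbxl12, were chosen after values were seen.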

Additional observations from a re-analysis of the deposited data

How the results depend on the processing

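Of 49 named genes with a value, none reversed its direction in 702 alternative values. Many of these genes were chosen for being called with separate groups. Leaving out 1 library can hardly reverse the direction of such a gene, so for them the lack of reversals says little. A call was lost in 22 values with a library left out and in 14 under other settings, and gained in 1 and 4. Of the 46 calls, 30 (14 higher, 16 lower) held in every alternative that tests all 99 genes. Leaving out single libraries gave 37 to 44 calls, DESeq2's Wald test 34 and all 9 libraries 56. With only single-transcript genes, 21 of 38 were called, by family 2 Trim, 8 Rnf, 2 Fbxo, 2 Fbxl and 4 Klhl; of the pathway lists it called 2 of ubiquitin and activating enzymes, 8 of other ligases and 5 of deubiquitinases, with fewer genes tested. DESeq2's Wald test called 12 Rnf genes and 1 gene of the cullin core, and the fit of all 9 libraries 8 Fbxo genes and 5 of the cullin core; the cause was not tested. With a library left out, calls ran from 1 to 3 for Fbxw, 1 to 4 for the cullin core, 7 to 14 for extract-labelled against CLP-labelled and 3 to 11 for extract-labelled against sham-labelled libraries. That last comparison had 15 calls with no minimum and 4 with only its 6 libraries. No sign of pairing by replicate number was seen. Same-numbered CLP-labelled and sham-labelled libraries correlated at 0.025, -0.033 and 0.018 in their deviations from the group means. Differently numbered ones correlated at -0.045 to 0.027. With 3 libraries per group and counting error in the deviations, such values cannot exclude a pairing. With replicate number as a block 47 genes were called, 22 higher and 25 lower. Of the 269 symbols, 170 lay under the minimum mean of 10 counts, and 98 of these had counts and were tested in the fit with no minimum.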
